A study of Mus musculus with 8 samples.

Results

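The 37 genes described here carry out or control the cell's responses to misfolded protein. They were listed by name and grouped by role, into 14 chaperones and folding enzymes of the endoplasmic reticulum (ER), 3 genes of ER-associated degradation, 4 sensors and transducers of the unfolded protein response including Xbp1, 5 genes of ATF4 and its targets, and 11 heat shock genes. All 37 were found among 37048 features of the whole series, and all 37 passed the filter on low counts that left 15185 genes for testing. RNA was sequenced from white adipose tissue of wild-type female C57BL/6J mice, an inbred strain, after a tail vein injection. The control group was given PBS, a saline vehicle, and the other group endostatin at 50 mg/kg, a collagen XVIII fragment that restrains the growth of blood vessels. In both groups the tissue was taken during the day, 2 h after the injection, with food withdrawn in between. No age is given in the labels, which call the tissue epididymal although the mice were female. Of the 4 libraries in a group, 2 belong to each batch, and the labels number the 2 batches without saying what a batch was. The series text speaks of 4 mice and the labels tie no library to an animal, so the spread that a p-value measures here is that of these libraries and may be technical.

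The unfolded protein response is run from the ER membrane by IRE1 (Ern1), PERK (Eif2ak3) and ATF6. IRE1 splices Xbp1 RNA into the form that encodes an active transcription factor, ATF6 is cut to release another, and both act on chaperone genes, while PERK slows most translation but favours that of Atf4 RNA, whose product then drives transcription of its target genes. The heat shock response is a separate program for misfolded protein in the cytosol and nucleus, run by HSF1. Adipocytes secrete large amounts of protein such as adiponectin and depend on ER chaperones for their folding.

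Known regulatory letters near the transcription starts are shown here because some genes of the role groups hold different ones. The ER stress response element of chaperone genes comes first. Windows from 250 bases before to 50 bases after the transcription start were taken from RefSeq (build GRCm38.p6) and matched by symbol. That build differs from GRCm39, which the submitters' processing notes name, so the positions below belong to GRCm38.p6 alone. Of the 37 genes, 31 had a window, and Hsp90aa1, Hspa8, Manf, Hyou1, Atf6 and Hsf1 had none. The element was searched on both strands as CCAAT, 9 bases of any kind, and CCACG, and capitals mark those fixed letters. Each match below is written in the direction in which it reads CCAAT first.
Hspa5: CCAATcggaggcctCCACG
Hsp90b1, upstream: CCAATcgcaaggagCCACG
Hsp90b1, downstream: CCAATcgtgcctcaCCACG
Calr: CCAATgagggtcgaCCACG
Canx: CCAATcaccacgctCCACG
Pdia6: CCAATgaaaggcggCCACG
Dnajc3: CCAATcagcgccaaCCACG
Creld2: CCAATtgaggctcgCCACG

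These 7 genes are all ER chaperones or folding enzymes, and the match was found in 0.119% of all 32851 windows. Pdia3, Pdia4, Dnajb9, Dnajb11 and Sdf2l1, of the same role group, had a window without it. In Hspa5 it lies at chr2:34772025-34772043, 65 to 47 bases before the start. In Hsp90b1 the upstream match is at chr10:86705638-86705656 and the downstream one, on the opposite strand, at chr10:86705533-86705551. The others lie at chr8:84847075-84847093 (Calr, opposite strand), chr11:50325800-50325818 (Canx), chr12:17266491-17266509 (Pdia6), chr14:118937827-118937845 (Dnajc3) and chr15:88819520-88819538 (Creld2, opposite strand). The 150 bases before the Hspa5 start (chr2:34771940-34772089, plus strand) show the match in its setting.
Hspa5, upstream: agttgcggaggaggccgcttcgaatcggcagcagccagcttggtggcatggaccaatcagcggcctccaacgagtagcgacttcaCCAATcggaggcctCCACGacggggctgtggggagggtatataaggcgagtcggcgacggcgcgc

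A shorter form, ATTGG, 1 base and CCACG, was searched after the first element had been found. It occurred in Dnajb11 and Herpud1, against 0.037% of all windows. The core TGACGTGG of the unfolded protein response element was found in 0 of the 31 genes with a window and in 0.676% of all windows. The core TGATGNAA of the amino acid response element, which ATF4 binds with a partner, occurred in Asns, Chac1, Trib3 and Herpud1, against 3.969% of all windows. Atf4 and Ddit3 had a window without it. The matches are printed with 6 bases on each side, the core in capitals.
Asns: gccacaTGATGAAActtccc
Chac1: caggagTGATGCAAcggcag
Trib3: cccggcTGATGTAAacctga
Herpud1: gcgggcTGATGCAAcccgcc

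The Asns core lies at chr6:7693225-7693232 on the gene's strand. Those of Chac1 (chr2:119351049-119351056), Trib3 (chr2:152344039-152344046) and Herpud1 (chr8:94386317-94386324) read on the opposite strand, and the Trib3 match lies after the start. A heat shock element of 3 alternating units, GAA and TTC with 2 bases between them, was found in Hsph1, Hspd1 and Hspe1, against 0.603% of all windows. The heat shock genes Hspa1a, Hspa1b, Dnajb1, Hspb1 and Bag3 had a window without an exact match. Hspd1 and Hspe1, the chaperonin of mitochondria and its lid, are neighbours transcribed away from each other and share the same stretch.
Hsph1: TTCtgGAAagTTC
Hspe1: TTCtaGAAccTTC

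The Hsph1 match is at chr5:149636288-149636300 and the Hspe1 match at chr1:55088059-55088071. Xbp1, Ern1, Eif2ak3, Sel1l and Edem1 had a window without any of the matches searched. A match describes these letters in this window and shows no binding.

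The libraries held 15826783 to 23786594 estimated counts, so that a count of 0 in a single library would allow up to 3 counts, or 0.126 to 0.19 CPM (counts scaled to library size). All 11 adipocyte markers listed, such as Adipoq, were detected in every library, with sums of 43820 to 57990 TPM (a level corrected for transcript length) in 7 libraries and 29800 TPM in control 3. The 13 oviduct and uterus markers each had reads in some library, though Pax8 and Wnt7a stood at 0 CPM in control 1, control 2, endostatin 2 and endostatin 3. Their sum was 119 to 155 TPM in 6 libraries, 852 TPM in control 3 and 1240 TPM in endostatin 4. The make-up of these high sums differed. Ltf and Lcn2 stood at 339 and 258 CPM in endostatin 4, and at 86.1 and 4.15 CPM in control 3. Ovgp1, Pgr and Msx1 stood at 14.9, 225 and 145 CPM in control 3, and at 0.65, 13.8 and 11.3 CPM in endostatin 4. Epcam, Krt8, Krt18, Pax8 and Msx2 were higher in both than in the other 6 libraries. The rest of the list did not follow. Esr1 stood at 205 to 338 CPM over all libraries, so it adds to every sum, and at 225 CPM in endostatin 4. Foxj1 stood at 1.27 CPM in control 3 and at 0 CPM in endostatin 4. Wnt7a stood at 4.87 CPM in control 3, 0.49 CPM in endostatin 4 and 1.57 CPM in endostatin 1. For skeletal muscle markers the sum was 35.95 to 109 TPM in 6 libraries, 273 TPM in control 1 and 525 TPM in control 4. The list of 19 hepatocyte markers includes Cyp2e1 and Rbp4, which fat also expresses and which were set aside with their values known. The other 17 reached a total of 166, 115, 15.9 and 27.8 TPM in control 1 to 4, and of 391, 603, 24.2 and 1179 TPM in endostatin 1 to 4. The 10 macrophage markers summed to 638 to 947 TPM in 6 libraries, and to 1365 and 1363 TPM in endostatin 3 and endostatin 4. Cd14 and Fcgr1 of that list did not follow this order. The part of these other cell types in the values below was not tested. Control 3 and endostatin 4 also stood apart on the first principal component, which held 29.3% of the variance. In bulk tissue, fewer cells of a type and less RNA per cell cannot be told apart.

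Per transcript length the genes spanned a wide range. Hspa8, the constitutive cytosolic heat shock protein of the HSP70 family, had the highest level, a mean of 1069 TPM with 791 to 1496 TPM over the 8 libraries, above the highest value of any other member. Calr (calreticulin) followed at 357 TPM (312 to 415), Hspa5 (BiP, the main HSP70 chaperone of the ER) at 269 TPM (215 to 406) and Canx (calnexin) at 236 TPM (194 to 282). The range of Hspa5 overlapped those of Calr and Canx, while the range of Calr lay above that of Canx. At the low end stood the stress-induced genes Trib3, a pseudokinase, at 5.15 TPM (3.53 to 8.34), Chac1, which breaks down glutathione, at 10.7 TPM (6.75 to 15.6), and Hspa1a, an inducible cytosolic HSP70, at 12.9 TPM (7.57 to 20.5).

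None of the 37 genes differed between endostatin and control libraries by the test. In edgeR's quasi-likelihood test with a term for batch, 0 of 37 had an adjusted p under 0.05, and 0 of 37 had an unadjusted p under 0.05. DESeq2 and limma-voom also called 0 of 37. Over all 15185 genes edgeR called 0%, and 3.19% had an unadjusted p under 0.05. Of the 37 log2 fold changes (endostatin minus control), 15 were positive and 22 negative, with a median of -0.01, equal to the median of all genes tested at this precision, where 46.6% were positive. The lowest adjusted p among the 37 was 0.9998 (edgeR, Benjamini-Hochberg).

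The intervals show what size of difference these libraries leave room for. The 95% interval of the log2 fold change lay inside -1 to 1, a fold of 2 in either direction, for 35 of the 37 genes, the exceptions being Pdia6 and Chac1. It lay inside -0.58 to 0.58, a fold of 1.5, for 30 of them. The median distance from the estimate to either end of the interval was 0.30, against 0.39 over all genes tested.

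**Figure D1:**
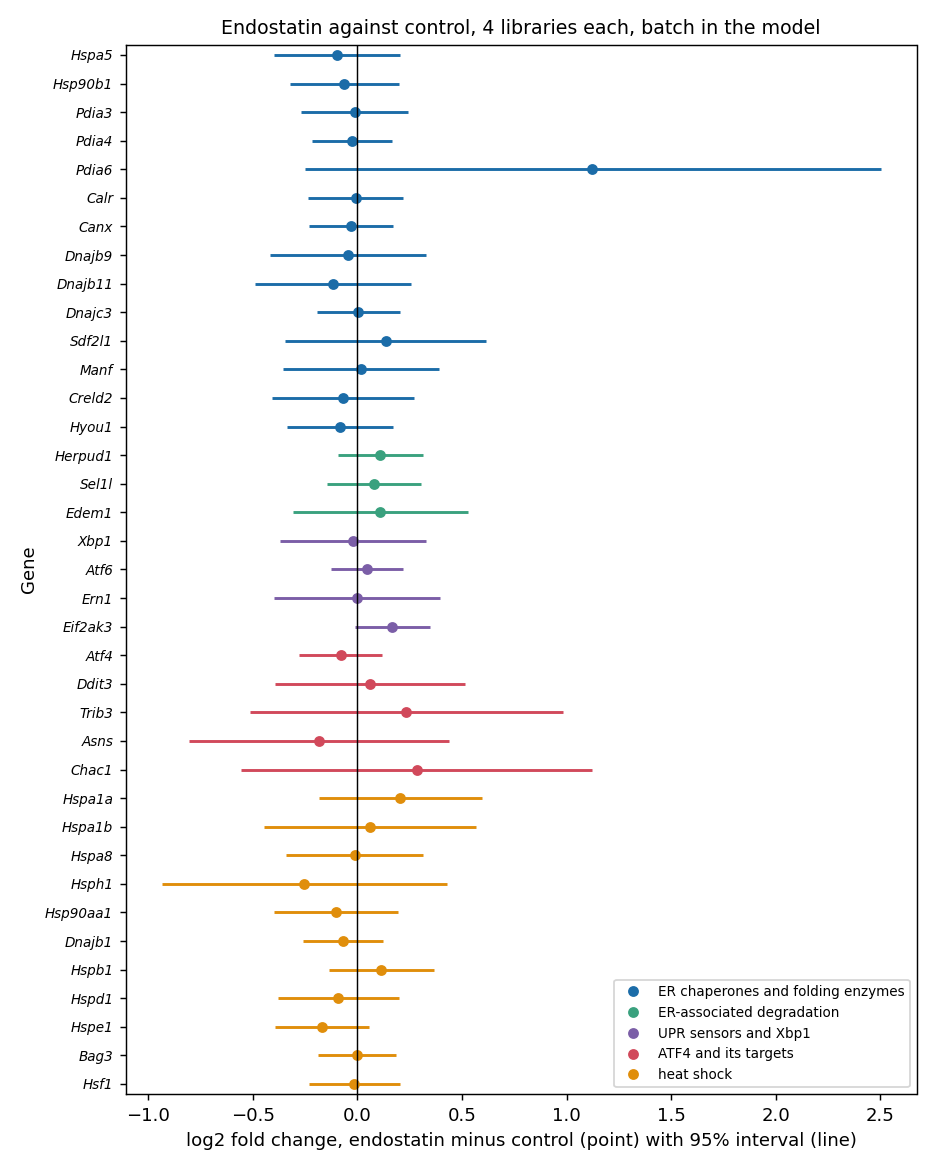
Log2 fold change of each of the 37 genes, endostatin minus control (horizontal axis, log2 scale), as a point with its 95% interval from edgeR, coloured by role. Every interval includes 0; that of Pdia6 is the widest, from -0.25 to 2.50, and that of Eif2ak3 starts at -0.01.

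Among the sensors, Eif2ak3 (ENSMUSG00000031668), which encodes the kinase PERK, was the single member whose groups did not overlap in CPM. It stood at 29.8, 28.7, 29.3 and 30.4 CPM in control 1 to 4 and at 31.8, 33.4, 32.4 and 35.2 CPM in endostatin 1 to 4. Each endostatin library was above every control library, by a small step. Such a gap was seen in 1.64% of all genes tested and in 1 of these 37. The log2 fold change was 0.17 ± 0.08 (SE), with a 95% interval from -0.01 to 0.35 and an adjusted p of 0.9998 in edgeR's test (unadjusted p = 0.0644). It was 0.16 in batch 1 and 0.18 in batch 2. With offsets for the length of the transcripts in use it was 0.07, and in TPM the groups overlapped, with 13.4 to 18.1 in the control and 15.5 to 18.0 in the endostatin libraries.

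The other sensors showed no such order. Ern1, the gene of IRE1, stood at 36.7, 41.6, 59.2 and 35.1 CPM in the control libraries and at 40.1, 38.4, 39.9 and 53.8 CPM in the endostatin libraries. The highest value of each group was in control 3 and endostatin 4, where the sum of oviduct and uterus markers was also high, through partly different genes. The part of these markers in this was not tested. For Ern1 the log2 fold change was -0.00 ± 0.17. Atf6, a transcription factor held in the ER membrane, stood at 77.9, 79.8, 72.4 and 80.9 CPM in control 1 to 4 and at 81.6, 79.0, 84.8 and 75.9 CPM in endostatin 1 to 4. Its groups overlapped within a narrow band, with a log2 fold change of 0.05 ± 0.07 and a 95% interval from -0.13 to 0.22.

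Xbp1, the target of IRE1, stood at 178, 230, 137 and 198 CPM in control 1 to 4. It stood at 182, 199, 157 and 193 CPM in endostatin 1 to 4. The endostatin values lay within the range of the control values, and control 3 was the lowest library. The log2 fold change was -0.02 ± 0.15, with a 95% interval from -0.37 to 0.33. These values hold the total RNA of the gene. IRE1 removes an intron of 26 bases. Of the 4 transcripts of Xbp1 in the deposited files, none held the sequence of Xbp1-201 with 26 bases left out. A transcript with 26 bases more than Xbp1-201 was not searched for. The spliced and unspliced forms were therefore not separated here.

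The 14 ER chaperones and folding enzymes had a median log2 fold change of -0.03, with 4 positive and 10 negative values, and 0 of 14 were called. Hspa5 (ENSMUSG00000026864), the standard readout of the unfolded protein response, stood at 316, 271, 405 and 313 CPM in control 1 to 4. In endostatin 1 to 4 it stood at 305, 249, 352 and 311 CPM. The groups overlapped over most of their range, and control 3 was the highest library. Hspa5 thus had a difference of -0.10 ± 0.13 on the log2 scale (95% interval -0.40 to 0.20). Hsp90b1, the HSP90 of the ER, had 333 ± 39 CPM (SD, n = 4) in the control and 319 ± 8 CPM in the endostatin group.

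The lectin chaperones Calr and Canx hold glycoproteins until they have folded. Of the ER chaperones they had the smallest residual SD, the spread left after batch and treatment were fitted. Calr stood at 372, 390, 397 and 385 CPM in the control libraries and at 343, 361, 420 and 416 CPM in the endostatin libraries. Canx stood at 337, 325, 341 and 341 CPM in the control libraries and at 314, 311, 346 and 348 CPM in the endostatin libraries. For both, the endostatin libraries of batch 1 were the lowest and those of batch 2 the highest of all 8. The residual SD of Canx on the log2 scale was 0.04, at percentile 0.3 of genes tested. The log2 fold changes were -0.01 ± 0.10 for Calr and -0.03 ± 0.09 for Canx.

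Among the other folding enzymes, the disulfide isomerases Pdia3 and Pdia4 had log2 fold changes of -0.01 ± 0.11 and -0.03 ± 0.08. The J-domain cochaperones of BiP had -0.04 ± 0.16 (Dnajb9), -0.11 ± 0.16 (Dnajb11) and 0.00 ± 0.09 (Dnajc3). Hyou1, an exchange factor of BiP, had -0.08 ± 0.11. The small ER proteins Sdf2l1, Manf and Creld2 had 0.14 ± 0.21, 0.02 ± 0.16 and -0.07 ± 0.15. All 9 of these intervals include 0.

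Pdia6 (ENSMUSG00000020571), a disulfide isomerase, had the largest log2 fold change of the 37 and the widest spread. It stood at 4.41, 22.8, 7.91 and 13.1 CPM in control 1 to 4 and at 15.0, 27.6, 50.2 and 13.7 CPM in endostatin 1 to 4. Both groups spanned more than a fold of 2, and the control value of 22.8 exceeded those of endostatin 1 and 4. The log2 fold change was 1.12 ± 0.60, with a 95% interval from -0.25 to 2.50 (edgeR adjusted p = 0.9998), and without endostatin 3 it was 0.54. The one listed protein-coding transcript, Pdia6-201, is listed at 0 TPM in control 1 and control 3 and at 6.26 to 35.5 TPM in the other 6 libraries. The value of Pdia6 is therefore uncertain, since the deposited files also hold 1956 transcripts that could not be matched to a gene here, and whether its reads were assigned to any of them was not tested.

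ER-associated degradation returns misfolded proteins to the cytosol for the proteasome. The log2 fold changes of all 3 genes were positive (median 0.11), and 0 of 3 were called. Herpud1, a membrane component that recruits the degradation machinery, had 69.8 ± 7.9 CPM in the control and 75.1 ± 3.2 CPM in the endostatin group (SD, n = 4), a log2 fold change of 0.11 ± 0.09. Sel1l, the partner of the HRD1 ubiquitin ligase, had 0.08 ± 0.10. Edem1, which marks mannose-trimmed glycoproteins for disposal, stood at 174, 168, 118 and 191 CPM in the control libraries and at 173, 187, 207 and 135 CPM in the endostatin libraries. Control 3 and endostatin 4 were its lowest libraries, and its log2 fold change was 0.11 ± 0.18.

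ATF4 and its targets had log2 fold changes from -0.18 to 0.28 with a median of 0.06, and 0 of 5 were called. Atf4 itself stood at 72.6, 58.6, 67.0 and 63.4 CPM in control 1 to 4 and at 62.0, 59.1, 64.2 and 62.3 CPM in endostatin 1 to 4. The endostatin values lay inside the control range, with a log2 fold change of -0.08 ± 0.09. Ddit3, the gene of CHOP, which promotes cell death under lasting ER stress, stood at 14.2, 8.87, 8.07 and 8.003 CPM in the control libraries and at 10.4, 9.44, 9.51 and 10.9 CPM in the endostatin libraries. Control 1 was above all others, and without it the log2 fold change of Ddit3 moved from 0.06 ± 0.20 to 0.27 ± 0.15.

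The direction of 4 of these 5 genes differed between the batches. Asns, which makes asparagine, stood at 74.9, 74.3, 33.2 and 75.4 CPM in control 1 to 4 and at 47.5, 56.1, 50.6 and 70.6 CPM in endostatin 1 to 4. Of the control libraries only control 3 was below 74 CPM, and without it the log2 fold change went from -0.18 ± 0.27 to -0.46 ± 0.13 (edgeR adjusted p = 0.806). Chac1 stood at 13.2, 7.23, 4.98 and 7.40 CPM in the control libraries and at 5.67, 9.98, 12.9 and 11.2 CPM in the endostatin libraries. In batch 2 both endostatin libraries were above both control libraries, while in batch 1 the groups overlapped. Within batch 1 the log2 fold changes were -0.39 for Chac1, -0.29 for Trib3, -0.22 for Ddit3 and -0.53 for Asns. Within batch 2 they were 0.96, 0.76, 0.34 and 0.16. The groups overlapped within batch 1 for Chac1 and Ddit3, and within batch 2 for Trib3 and Asns. None of these genes thus had its groups apart in both batches.

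The test of that difference, the interaction of batch and treatment in edgeR, called 0 of 37 genes and 0% of all genes. The interaction was 1.35 ± 0.56 for Chac1 (unadjusted p = 0.0491, edgeR adjusted p = 0.997) and 1.05 ± 0.55 for Trib3 (unadjusted p = 0.101, edgeR adjusted p = 0.997). A negative difference in batch 1 with a positive one in batch 2 was shown by 4 of 5 genes of this group (80%). The share was 24.2% over all genes tested. It was 46.2% (12 of 26) for further genes of the ATF4 pathway. For the ER chaperones it was 42.9% (6 of 14), and for further ER genes 42.9% (12 of 28). Lower shares were those of ER-associated degradation (1 of 3, 33.3%), the sensors (1 of 4, 25%), the heat shock genes (2 of 11, 18.2%) and further heat shock genes (6 of 34, 17.6%). Signs matched between the batches for 16 of the 37 genes (43.2%), against 47.7% of all genes. The interaction of Chac1 rests on 2 libraries against 2 in each batch, and control 3, its lowest library, is one of them. Without control 3 the overall log2 fold change of Chac1 was 0.01 ± 0.35.

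**Figure D2:**
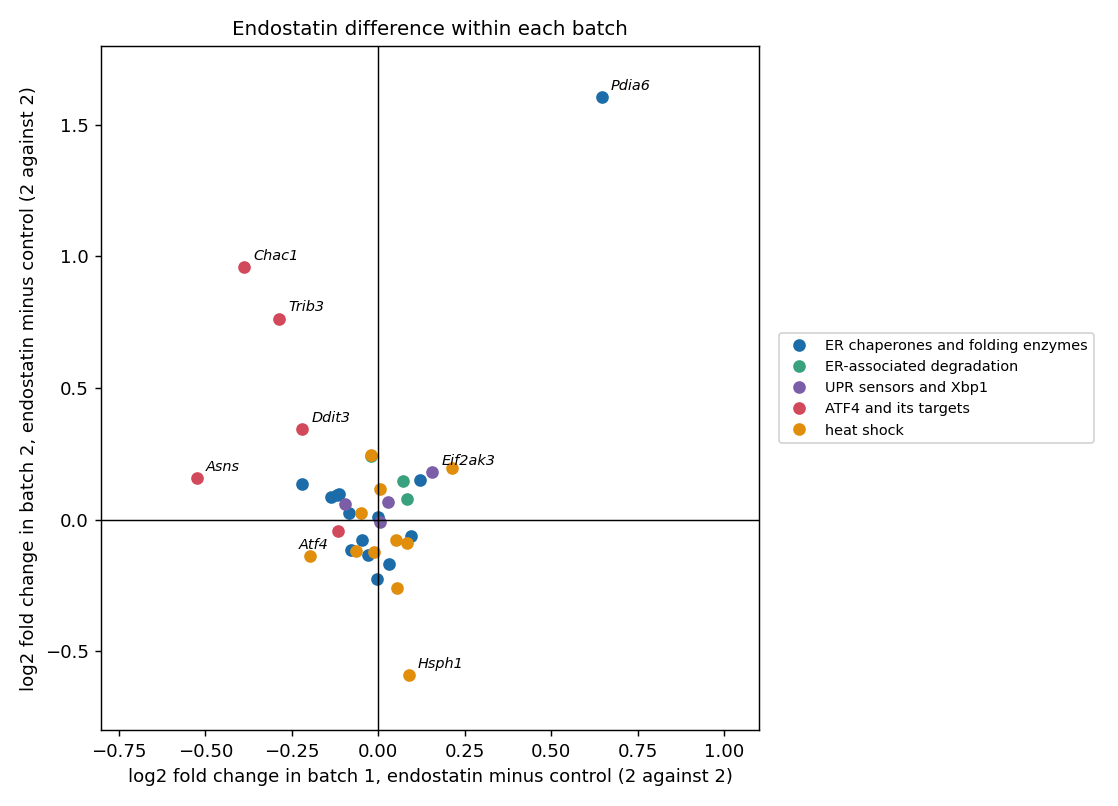
Log2 fold change (endostatin minus control) in batch 1 on the horizontal axis and in batch 2 on the vertical axis, both on the log2 scale and each from 2 libraries against 2; points are the 37 genes, coloured by role. Chac1, Trib3, Ddit3 and Asns lie in the upper left quadrant, and most other genes lie near the centre.

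The 11 heat shock genes had a median log2 fold change of -0.01, with 3 positive and 8 negative values, and 0 of 11 were called. Hsf1, the regulator of the response, stood at 33.9, 29.0, 38.1 and 34.0 CPM in control 1 to 4 and at 31.3, 33.8, 35.1 and 33.2 CPM in endostatin 1 to 4. The groups overlapped, with a log2 fold change of -0.01 ± 0.09. Hspa8 (ENSMUSG00000015656) stood at 899, 908, 1432 and 1079 CPM in the control libraries and at 877, 867, 1204 and 1350 CPM in the endostatin libraries. The order of its values followed the batches and not the treatment. The log2 fold change for endostatin was -0.01 ± 0.14, with a 95% interval from -0.34 to 0.31.

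The inducible genes Hspa1a and Hspa1b encode nearly the same protein, and 63.8% of the 31-base words of the Hspa1a transcript also occur in Hspa1b, so that reads can be divided between them either way. Their promoter windows were identical at 296 of 300 bases. Added together, they stood at 48.4, 46.6, 99.8 and 54.1 CPM in control 1 to 4 and at 50.5, 49.3, 69.9 and 99.8 CPM in endostatin 1 to 4. The highest values were those of control 3 and endostatin 4, one library of each group. For the sum the log2 fold change was 0.11 ± 0.19 (edgeR adjusted p = 0.9999). Taken apart, Hspa1a stood at 13.6, 15.9, 29.3 and 18.2 CPM in the control and at 18.4, 15.7, 24.2 and 30.3 CPM in the endostatin libraries, with a log2 fold change of 0.21 ± 0.17. Hspa1b stood at 34.8, 30.6, 70.5 and 35.9 CPM in the control and at 32.1, 33.6, 45.7 and 69.4 CPM in the endostatin libraries, with 0.06 ± 0.22. In both genes the groups overlapped.

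Hsph1, an exchange factor for HSP70, stood at 36.7, 28.8, 97.5 and 38.9 CPM in control 1 to 4 and at 40.8, 28.8, 44.6 and 45.9 CPM in endostatin 1 to 4. A single library, control 3, was above all the others, and without it the log2 fold change went from -0.25 ± 0.29 to 0.13 ± 0.15. Retained-intron transcripts gave 24.2% to 51.5% of the Hsph1 TPM over the libraries, 47.7% in control 3. Hsp90aa1, the inducible cytosolic HSP90, was also highest in control 3, at 261 CPM against 186 to 221 CPM in the other 7 libraries, with a log2 fold change of -0.10 ± 0.13. The log2 fold changes of the other heat shock genes were -0.07 ± 0.08 for the HSP40 cochaperone Dnajb1, 0.11 ± 0.11 for the small heat shock protein Hspb1 and -0.00 ± 0.08 for the cochaperone Bag3. Those of the mitochondrial pair were -0.09 ± 0.13 for Hspd1 and -0.17 ± 0.10 for Hspe1, whose unadjusted p of 0.123 was the lowest of the group in edgeR's test.

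**Figure D3:**
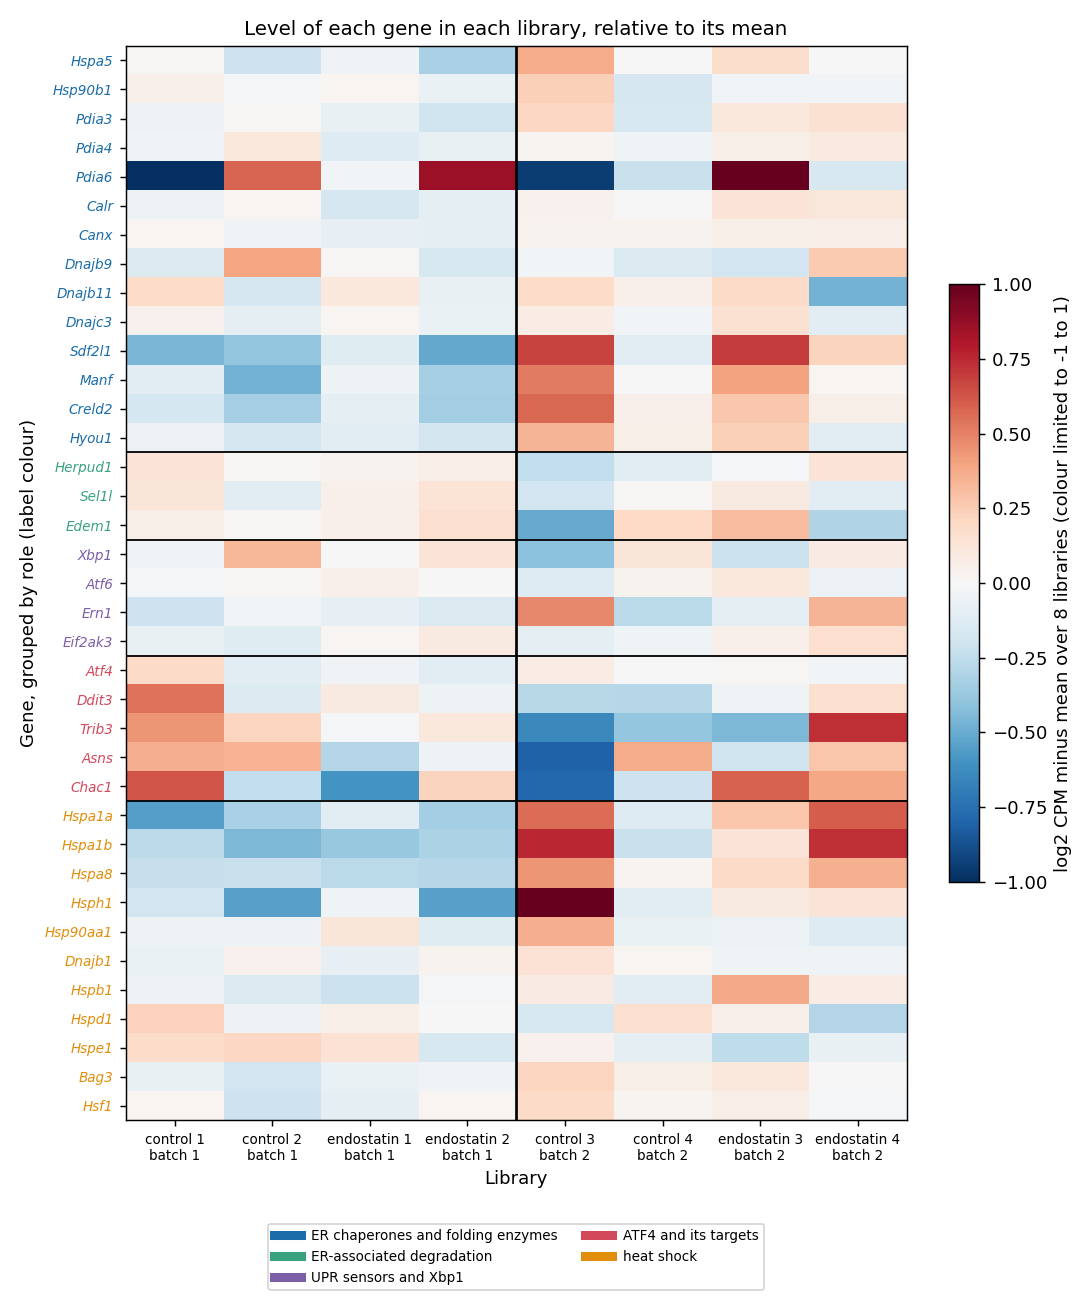
Log2 CPM of each of the 37 genes (vertical axis, by role) in each of the 8 libraries (horizontal axis, by batch), minus the gene's mean over the libraries; colours stop at -1 and 1. Control 3 is the highest library for 14 genes (37.8%) and the lowest for 8 (21.6%), against 24.6% and 21.1% of all genes tested, and the batches do not overlap in 7 of the 37 genes (against 6.42% of all genes tested), Sdf2l1, Manf, Creld2, Canx, Hspa1b, Hspa8 and Bag3, each higher in batch 2.

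More of the 37 genes reached a low unadjusted p between the batches than between the treatments. In edgeR's test of batch 2 against batch 1, 9 of 37 genes (24.3%) had an unadjusted p under 0.05, against 9.96% of all genes, and all 9 were higher in batch 2. That count depended on the libraries: it was 5 of 37 without control 2 (all genes 9.03%) and 5 of 37 without endostatin 3 (all genes 9.83%), and lay between 5 and 12 over all 8 ways of leaving out a library. With adjustment 0 of 37 were called, 0 higher and 0 lower, where the test called 0.0395% of all genes, 0.00659% higher and 0.0329% lower in batch 2. DESeq2, which called 171 genes for batch against 6 in edgeR, called Hspa8 (DESeq2 adjusted p = 0.00149) and Hspa1a (DESeq2 adjusted p = 0.0445). The medians of batch 2 minus batch 1 on the log2 scale were 0.19 for the heat shock genes, with 9 of 11 positive, and 0.13 for the ER chaperones, with 12 of 14 positive. They were -0.11 for ER-associated degradation, with 0 of 3 positive, and -0.12 for ATF4 and its targets, with 1 of 5 positive, against 0.01 over all genes. Without control 3 the median of ATF4 and its targets was 0.02, with 3 of 5 positive. With library size as the only scaling, where the median of all genes moved to 0.13, the medians were 0.31 for the heat shock genes, 0.24 for the ER chaperones (14 of 14 positive), -0.005 for ER-associated degradation and -0.02 for ATF4 and its targets.

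Among the heat shock genes, log2 differences of batch 2 minus batch 1 were 0.51 ± 0.14 for Hspa8, 0.68 ± 0.17 for Hspa1a, 0.76 ± 0.22 for Hspa1b and 0.72 ± 0.29 for Hsph1, and 0.19 ± 0.08 for Bag3. Bag3 stood at 59.1, 54.5, 59.6 and 60.8 CPM in control 1, control 2, endostatin 1 and endostatin 2. In the libraries of batch 2 it stood at 72.2 and 65.0 CPM for control and at 67.1 and 62.1 CPM for endostatin. Each library of batch 2 was thus above every library of batch 1, a pattern shared by 7 of the 37 genes, Canx, Sdf2l1, Manf, Creld2, Hspa1b, Hspa8 and Bag3. It was shown, in either direction, by 6.42% of all genes tested.

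Among the ER genes, Sdf2l1, a partner of the J-domain cochaperones, stood at 6.91 and 7.23 CPM in the control and 8.71 and 6.65 CPM in the endostatin libraries of batch 1. In batch 2 it stood at 15.2 and 8.77 CPM in the control and 15.4 and 11.1 CPM in the endostatin libraries, a log2 difference between batches of 0.77 ± 0.21. Manf, a secreted ER protein, stood at 30.5, 23.6, 31.7 and 26.1 CPM in batch 1 and at 47.1, 32.9, 43.4 and 33.2 CPM in batch 2, controls first, a difference of 0.48 ± 0.16. Creld2, which is induced with Manf under ER stress, stood at 14.7, 13.2, 15.5 and 13.0 CPM in batch 1 and at 24.7, 17.2, 19.98 and 17.3 CPM in batch 2. Its difference was 0.49 ± 0.15. In all 3 genes control 3 and endostatin 3 were the top libraries of batch 2. Hyou1 stood at 131, 121, 127 and 120 CPM in batch 1 and at 173, 142, 161 and 126 CPM in batch 2, where endostatin 4 overlapped with batch 1, and had a difference of 0.27 ± 0.11.

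Other measures also differed between the batches. The 14 immediate early genes listed, all detected, summed to 189 to 284 TPM in batch 1 and to 295 to 412 TPM in batch 2, and the share of counts on mitochondrially encoded genes was 4.23% to 5.19% in batch 1 and 2.13% to 3.31% in batch 2. Not every immediate early gene followed the sum. Dusp1 stood at 38.8, 77.6, 57.8 and 87.7 CPM in batch 1 and at 77.6, 111, 152 and 111 CPM in batch 2, controls first. Egr1 stood at 14.5, 20.8, 28.0 and 27.3 CPM in batch 1 and at 13.9, 19.9, 21.4 and 12.6 CPM in batch 2. The part of these measures in the difference between batches was not tested. Without control 3 and endostatin 4, both in batch 2, the medians were 0.18 for the heat shock genes and 0.13 for the ER chaperones, and 0.01 for ER-associated degradation (2 of 3 positive) and 0.00 for ATF4 and its targets (3 of 5 positive). In that fit 10 of 37 genes had an unadjusted p under 0.05, against 13% of all genes (edgeR). The differences of single heat shock genes were smaller without them, 0.37 for Hspa8, 0.41 for Hspa1a, 0.32 for Hspa1b and 0.31 for Hsph1. Those of Sdf2l1, Manf and Creld2 were 0.69, 0.45 and 0.41.

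**Figure D4:**
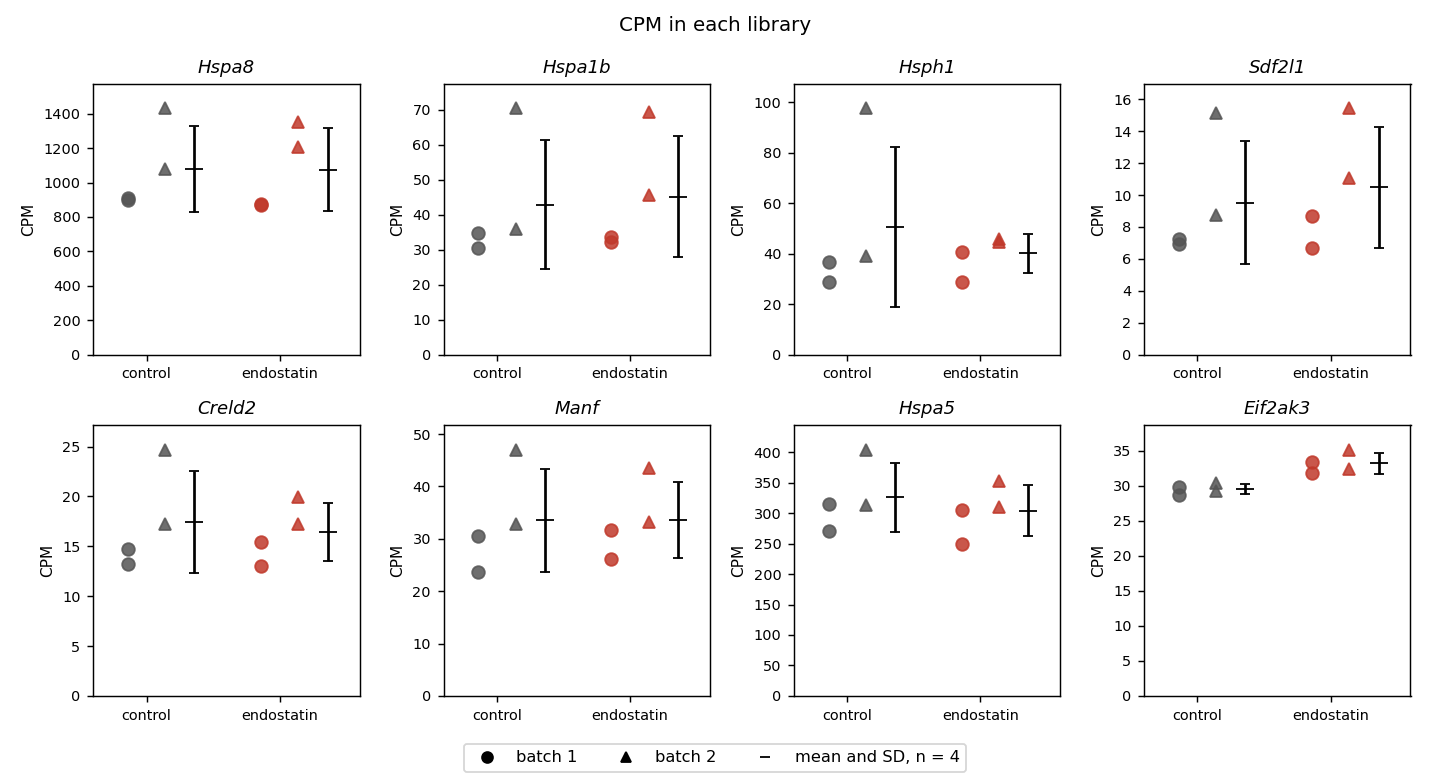
CPM in each library (vertical axis, from 0) for 8 of the genes in the control and endostatin groups; circles are libraries of batch 1, triangles those of batch 2, and the bar beside each group is its mean and SD (n = 4). In Hspa8, Hspa1b, Sdf2l1, Creld2 and Manf all triangles lie above all circles, and in Eif2ak3 alone all endostatin values lie above all control values.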

How the data were processed

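The authors deposited estimated counts per transcript, made with Salmon; the submitters' processing notes also name GRCm39. Salmon's version, index and settings are not stated in those notes. The deposited TPM values are levels that Salmon corrected for length and scaled to 1 common total per library. Each file lists 115620 transcripts; 113664 (98.31%) matched GENCODE M21 by identifier without version, and 1956 were kept as features of their own. Ddit3 matched a pair of gene identifiers, of which one held no reads. The estimated counts of a gene's transcripts were added up and rounded to whole numbers. Libraries were strand-specific and depleted of ribosomal RNA, per the labels' protocols.

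Genes were filtered with filterByExpr, scaled by TMM and tested in edgeR 4.0.16 (R 4.3.3) by quasi-likelihood, with terms for batch and treatment, two-sided, with Benjamini-Hochberg adjustment over all 15185 genes and a threshold of 0.05; SEs come from the F statistic. CPM carries the TMM factors. A second model held the interaction. Alternatives included limma-voom (limma 3.58.1), DESeq2 1.42.0, other size factors, filters, transcript length offsets and left-out libraries. On simulated counts for 14956 genes, drawn with no difference between batches, 44.9% of 196 genes changed by a fold of 2 were recovered.

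The members, pathway lists, marker lists and the rule for naming genes were chosen with earlier results of these data known. Values per library are given for genes with an unadjusted p under 0.05 in any term, the sensors and the most abundant gene of each role; a few further genes were chosen after their values were seen. Of each further pathway list, up to 2 genes per direction with the smallest p are named. The read file named in the labels of endostatin 4 repeats that of endostatin 3; their log2 counts correlated at 0.974 over genes and differ, so both were kept. Protein sequences were not analysed here.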

Additional observations from a re-analysis of the deposited data

Results flagged for a closer look

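Each of the 37 genes was looked at in each group of 4 libraries for a library far from the other 3, by Dixon's criterion (a gap to the nearest value that is large beside the range). Of 74 such groups 8 had one (10.8%), where chance gives about 1 in 20, or 3.7 groups. Over all genes tested 8.8% of groups had such a library. Control 3 held 4 of the 8 here and 45.8% of those over all genes. It had the lowest Asns of the control group, 33.2 CPM against 74.3 to 75.4 CPM in the other 3. It had the highest Hspa1b, 70.5 CPM against 30.6 to 35.9 CPM, the highest Hsph1, 97.5 CPM against 28.8 to 38.9 CPM, and the highest Hsp90aa1, 261 CPM against 195 to 197 CPM. Control 1 had the highest Ddit3, 14.2 CPM against 8.003 to 8.87 CPM in the other controls. Endostatin 4 had the highest Ern1 of its group, 53.8 CPM against 38.4 to 40.1 CPM, and the lowest Hspd1, 193 CPM against 238 to 247 CPM. Endostatin 3 had the highest Hyou1, 161 CPM against 120 to 127 CPM.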

How the results depend on the processing

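Each log2 fold change was recomputed under 20 alternatives, giving 740 values for the 37 genes. Of these, 0 passed the threshold and 89 had the other sign, all but 1 of them for genes whose log2 fold change lay within 1 SE of 0. The sign held throughout for 9 genes, Atf4, Chac1, Dnajb1, Eif2ak3, Herpud1, Hspb1, Hspe1, Pdia6 and Sel1l. Hspa1a went from 0.21 to -0.002 without control 1 and control 4; the cause was not tested. Leaving out each library in turn, the median log2 fold change ranged from -0.08 to 0.27 for ATF4 and its targets and from -0.08 to 0.03 for the heat shock genes, and called genes stayed at 0. DESeq2 called 4 genes for endostatin and 28 for the interaction, against 0 in edgeR. The 6 genes called for batch became 2 with library size only, 171 with DESeq2, 10 with limma-voom and 11 with no low-count filter. They became 0 to 18 with 1 library left out, 27 without control 3 and endostatin 4, and 0 without control 1 and control 4. The cause was not tested. Libraries with the same replicate number did not deviate together (correlations 0.20, 0.15, -0.02 and -0.26), and 1 of 4 control libraries correlated best with its own number. A fit with the replicate number as a block in place of batch called 0 genes and 0 of the 37. With 4 libraries a group, a simulated fold of 2 was recovered in 44.9% of changed genes, drawn at random from the genes kept by the filter. Differences of this size or smaller could thus go uncalled among such genes. The median residual SD was 0.17 for the 37 genes and 0.24 for all genes tested, so that share need not hold for the 37.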

Other observations

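Further genes of the same pathways also gave 0 calls in edgeR's test of endostatin against control, and 1 of them, Dnaja1, had an unadjusted p under 0.05. That was 1 of 34 heat shock and cochaperone genes tested, with 0 of 28 ER genes and 0 of 26 ATF4 pathway genes. Over all genes tested the share was 3.19%. Of 28 further genes of ER folding and degradation, 17 had positive and 10 negative log2 fold changes, with 1 at 0 and a median of 0.01. Creb3l2, an ER-bound transcription factor of the ATF6 kind, stood at 105, 99.6, 118 and 102 CPM in control 1 to 4 and at 112, 123, 119 and 126 CPM in endostatin 1 to 4, a log2 fold change of 0.18 ± 0.08 (edgeR unadjusted p = 0.0605, adjusted p = 0.9998). P4hb, the main disulfide isomerase, had 0.14 ± 0.09, Fkbp2, a prolyl isomerase of the ER, -0.22 ± 0.15, and Derl2, of the degradation channel, -0.11 ± 0.08. Of 34 further heat shock and cochaperone genes, 9 were positive and 25 negative, with a median of -0.07. Dnaja1, an HSP40 cochaperone, stood at 151, 132, 190 and 154 CPM in control 1 to 4 and at 145, 116, 121 and 103 CPM in endostatin 1 to 4. Its log2 fold change of -0.37 ± 0.15 had a 95% interval from -0.71 to -0.03 (edgeR unadjusted p = 0.0379, adjusted p = 0.9998), with -0.12 in batch 1 and -0.62 in batch 2. The cochaperone Dnaja4 had -0.26 ± 0.13, Hspa12b, an HSP70 relative of endothelium, 0.13 ± 0.16 and the small heat shock protein Cryab 0.26 ± 0.36.

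Of 28 further genes of the ATF4 pathway, 26 were tested, and 10 were positive and 16 negative, with a median of -0.04. Fgf21 and Gdf15, secreted stress hormones, had too few counts. Sesn2, a sensor of leucine that restrains mTORC1, stood at 28.8, 29.5, 27.1 and 23.7 CPM in control 1, control 2, endostatin 1 and endostatin 2. In batch 2 it stood at 43.2 and 32.1 CPM in the control and 69.8 and 89.6 CPM in the endostatin libraries. Both endostatin libraries were thus below both controls in batch 1 and above both in batch 2. The interaction of batch and treatment was 1.28 ± 0.27 (edgeR unadjusted p = 0.00229, adjusted p = 0.997), and DESeq2, which called 28 genes for the interaction and 0 of the 37 members, called it with an adjusted p of 0.0492. The overall log2 fold change of Sesn2 was 0.45 ± 0.27. Ddit4, another inhibitor of mTORC1, chosen after its values were seen, stood at 46.7, 38.7, 20.7 and 40.4 CPM in batch 1 and at 53.8, 87.6, 95.9 and 166 CPM in batch 2, controls first. Atf3 had a log2 fold change of 0.32 ± 0.23 overall. The cystine transporter Slc7a11 stood at 42.1 CPM in control 3 and at 2.62 to 5.58 CPM in the other 7 libraries, and the folate enzyme Mthfd2 at 16.3 CPM in control 3 and at 2.87 to 6.25 CPM elsewhere. Their log2 fold changes were -1.07 ± 0.91 and -0.59 ± 0.47.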
